A study of Drosophila melanogaster with 12 samples.

Results

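The comparison described here sets testes of su(Hw) A2663/2 null males against testes of BL15598 males, 3 arrays each, or 6 of the 12 arrays of the series. The arrays were chosen by their titles alone. RNA came from about 100 pairs of testes of 3-day-old Drosophila melanogaster males per array, and 1 signal was deposited for each probe set, a group of probes that reports on a transcript. BL15598 carries y[1] w[67c23] and the insertion P{EPgy2}Amt[EY02782] with wild-type su(Hw). A2663/2 carries y[1] w[67c23] and 2 different alleles, su(Hw)[A2663] and su(Hw)[2], and its label writes the Amt insertion on the chromosome with A2663, across from the chromosome with allele 2. The remaining 6 arrays, 3 of the wild-type stock Canton S and 3 of the null 2/v (su(Hw)[2] over su(Hw)[v], with y[1], w[67c23], ct[6] and f[1] also present), enter only to show which of the compared genotypes stands apart. Both nulls therefore share allele 2, and the label of Canton S lists no y or w allele.

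Su(Hw), Suppressor of Hairy-wing, is a DNA-binding protein with an array of zinc fingers, known for making the gypsy retrotransposon act as an insulator together with Mod(mdg4) and CP190. It also binds many sites elsewhere in the genome, and in the ovary it is known to silence genes that are normally active in neurons. The testis holds germ cells from stem cells through spermatogonia, spermatocytes and spermatids, the somatic cyst cells that enclose them, and a sheath of muscle and pigment cells. A stock differs from another stock at many loci besides the marked ones, so a null can be read against a wild type only as far as the rest of their genomes is shared.

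The targeted gene went with the labels. The signal of su(Hw), on arm 3R, was 1410, 1544 and 1223 units in BL15598 and 64.0, 56.7 and 89.6 in A2663/2, and the 2 sets of arrays lay far apart. It fell by 4.33 on the log2 scale (SE 0.216, adjusted p = 0.00296), a 20.2-fold difference. Canton S had a mean of 985 and 2/v one of 42.6. Its measured neighbour CG31321 lay at 240.5, 153 and 229 units in BL15598 and at 564, 633 and 546 in A2663/2, and rose 2.85-fold (log2 1.51, SE 0.213, adjusted p = 0.0283). Both nulls were high, with a mean of 444 in 2/v and 152 in Canton S. The call of CG31321 stayed in only 1 of the 6 fits that left out an array. The neighbour on the other side, IFT54, had a log2 change of -0.10 (adjusted p = 0.909).

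Of 18769 probe sets, 655 (3.49%) were called, which here means an adjusted p under 0.05 in the limma fit of these 6 arrays, 433 (2.31%) higher in the null and 222 (1.18%) lower. Counted with 1 probe set per gene, 470 of 11982 named genes (3.92%) were called, 304 (2.54%) higher and 166 (1.39%) lower, and 390 of them changed at least 2-fold. The split between directions depended on scaling. Higher calls made up 66.1% as deposited, but 55.1% when every array was centred on its median, a scaling that shifted the overall median from 0.02 to -0.12 on the log2 scale. With a single array left out the fit called fewer probe sets. It called 118 higher and 65 lower without A2663/2 replicate 1, 122 and 47 without A2663/2 replicate 2 and 71 and 35 without A2663/2 replicate 3. The counts were 252 and 66 without BL15598 replicate 1, 211 and 62 without BL15598 replicate 2 and 339 and 155 without BL15598 replicate 3. Of the 75 called genes named by the rule, 21 stayed called without any single array, among them su(Hw), CG6870, CG11619, CG13675, Cyp28d1, Rph, lncRNA:CR40465, CG4712, phyl and CG42792, and 9 were lost whichever array was left out (CG7214, CG5612, vis, sunn, zpg, cuff, slgA, CG4080 and Mp). The labels call the arrays biological replicates, and the p-values measure the spread between them. Calls were densest at middle signals, 7.57% of probe sets in the decile with a median of 319 units, against 1.60% in the dimmest decile, where the median SD between replicates was 1.18 log2 units.

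Canton S and 2/v, which no call used, divided the 470 genes into sets of nearly equal size. For each gene the mean log2 signals of Canton S and 2/v were each assigned to the nearer of BL15598 and A2663/2. In 228 genes (48.5%) Canton S lay nearer BL15598 and 2/v nearer A2663/2, so that both nulls stood against both wild types. In 224 genes (47.7%) Canton S and 2/v both lay nearer A2663/2, so that the BL15598 wild type stood apart from the other wild type and from both nulls. Only 12 genes (2.55%) had A2663/2 apart and 6 (1.28%) had the crossed pattern. Over all 11982 genes the shares were 28.5%, 37.0%, 20.6% and 14.0% in that order.

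**Figure D1:**
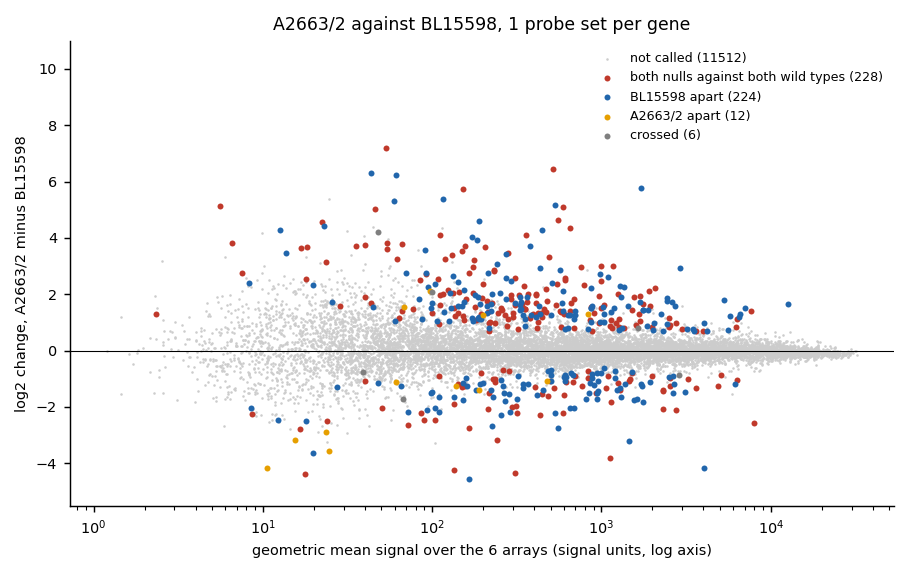
Log2 change (A2663/2 minus BL15598) against the geometric mean signal of the 6 arrays on a log axis, 1 point per gene. The 228 called genes with both nulls against both wild types and the 224 with BL15598 apart lie over the same range of signals.

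The 3 BL15598 values lay outside the other 9 in 218 of the 224 genes with BL15598 apart, and the 6 null arrays did not overlap the 6 wild-type arrays in 204 of the 228 genes of the first class. Over all named genes these shares were 9.5% and 7.59%, and 29.5% had BL15598 and A2663/2 arrays that did not overlap. All 470 called genes were among the latter, so the choice of called genes raises the first counts. On a scale with 0 at the BL15598 mean and 1 at the A2663/2 mean, the median position of 2/v over the called genes was 1.01, and 394 of the 470 (83.8%) lay above 0.75, against a median of 0.86 and 55.2% over all genes. Canton S was split, with 166 genes (35.3%) below 0.25, 182 (38.7%) above 0.75 and 122 between, of which 46 lay from 0.4 to 0.6 and so near the dividing line. Over all genes Canton S was split in the same way, with 40.6% below 0.25 and 42.5% above 0.75. Among the 352 called genes that changed at least 2-fold with 100 units or more on every array of the brighter group, each of the 2 large classes held 171. The genes were picked for a difference between BL15598 and A2663/2, so error in either mean also moves genes between classes.

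**Figure D2:**
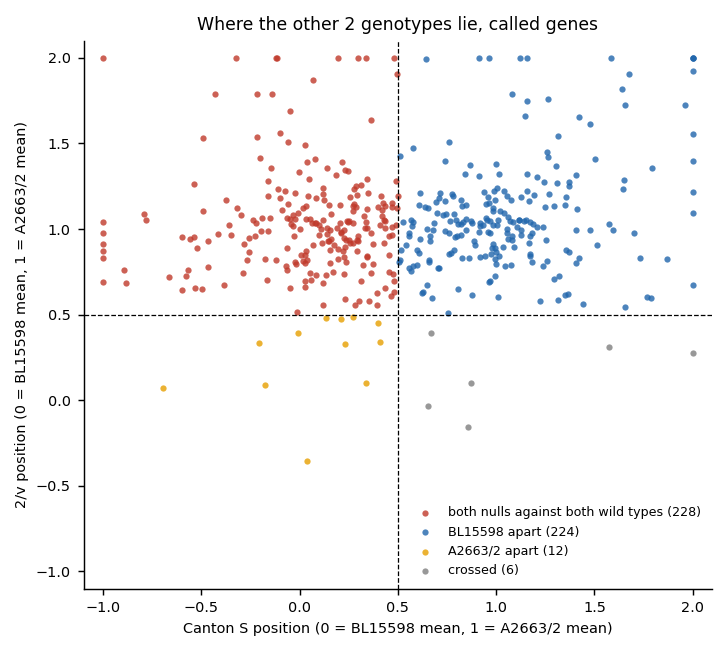
Position of Canton S (x) and 2/v (y) for the 470 called genes, with 0 at the BL15598 mean and 1 at the A2663/2 mean of log2 signal; values beyond the range shown are drawn at its edge. The 2/v arrays gather around 1, while Canton S falls at either end.

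The effect in A2663/2 against BL15598 was set against the effect in 2/v against Canton S in a limma fit of all 12 arrays, and this difference passed in 763 probe sets (4.07%) and in 601 of 11982 genes (5.02%). It passed in 149 of the 224 genes with BL15598 apart and in 20 of the 228 with both nulls against both wild types, counts that largely follow from the classes, since the same means define both. A fit of the 2/v and Canton S arrays alone, which shares no array with the main comparison, called 604 genes higher (5.04%) and 316 lower (2.64%). It shared 138 of the higher genes, 45.4% of the 304 and 22.85% of the 604, and 39 of the lower genes, 23.5% of the 166 and 12.3% of the 316. Of these shared calls, 122 and 37 were in the class with both nulls against both wild types. That class fixes the direction in advance, since the same 2/v and Canton S means define it. The others, 16 and 2, had BL15598 apart. In opposite directions, 10 genes were called higher here and lower in 2/v, and 8 lower here and higher in 2/v.

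The greatest rises with both nulls against both wild types were in genes that were close to dark in BL15598. ND-51L2, a paralog of a subunit of mitochondrial complex I, had 66.4, 19.6 and 131 units in BL15598 and 4542, 5113 and 4945 in A2663/2. The 2/v mean was 5041 and the Canton S mean 296. Since 1 BL15598 array lay under 20.4 units, which is the median signal of control probe sets, no fold is given (log2 6.45, adjusted p = 0.0139). CG6870 lay at 85.2, 143.5 and 109 in BL15598 and at 2863, 2617 and 2769 in A2663/2, a 24.9-fold rise (log2 4.64, SE 0.215, adjusted p = 0.00266). Every null array of both genes exceeded every wild-type array.

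Several further genes of this class had no known role used here. CG13675 rose 34.0-fold, from 97.5, 79.0 and 139 to 3285, 3665 and 3488 units, and its other probe set rose too (log2 2.82, adjusted p = 0.00344). The BL15598 arrays of CG13675 lay below all others, with a Canton S mean of 474 and a 2/v mean of 5924. Its log2 change was 5.09 here and 3.69 in 2/v against Canton S. CG11619 rose 20.3-fold (adjusted p = 0.00296), and its measured neighbour CG14075 was also called higher (log2 3.24). CG6282 was called (log2 5.72, adjusted p = 0.0123) with 2 BL15598 arrays below the control level, whereas CG13038 rose at least 12.8-fold and CG8661 at least 5.35-fold, both with all 3 BL15598 arrays below that level. The odorant receptor gene Or22b had 3.19, 2.56 and 10.5 units in BL15598 and 779, 425 and 820 in A2663/2, a rise of at least 31.7-fold (adjusted p = 0.00727). Its Canton S mean was 31.8 and its 2/v mean 984. Both ND-51L2 and Or22b have near relatives in the genome, and cross-hybridisation was not tested.

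Among genes that fell with the other null, OS9 had 745.5, 627 and 428 units in BL15598 and 50.2, 29.8 and 20.5 in A2663/2 (18.7-fold, adjusted p = 0.00947). The noncoding lncRNA:CR40465 went from 4323, 4449 and 3869 to 323, 339.5 and 248, a 14.0-fold fall (log2 -3.81, adjusted p = 0.00266). In 2/v it was lower still, at 53.05, and the difference of the 2 null effects passed (log2 2.81, adjusted p = 0.00624). The very abundant transcript of CG4712 had the same order, with 17347, 19818 and 21379 units in BL15598, 2844, 2935 and 4102 in A2663/2 and a mean of 693 in 2/v (difference of effects 2.07, adjusted p = 0.0019). Zip102B, named as a zinc transporter, went from 375.5, 432 and 483.5 to 56.05, 65.0 and 71.4 units, a 6.71-fold fall that 2/v shared at 53.9. CG34396 fell 9.05-fold, with the call lost when its probe sets were averaged (log2 -2.44, adjusted p = 0.0564), CG9919 5.51-fold, CG40341 5.53-fold and CG10257 6.22-fold.

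**Figure D3:**
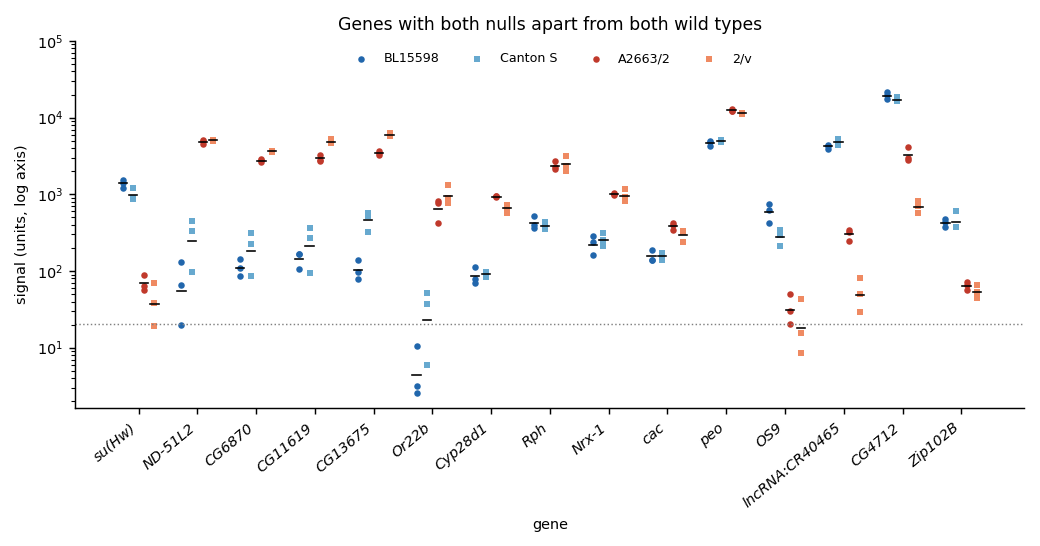
Signal on each of the 12 arrays (log axis) for 15 called genes with both nulls against both wild types; bars are geometric means and the dotted line is the control level of 20.4 units. In each gene the null arrays lie on 1 side of the wild-type arrays.

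Some genes known from the nervous system rose in A2663/2. Rph, which encodes the vesicle protein rabphilin, rose from 400.2, 364 and 517.5 to 2681, 2247 and 2134 units, 5.54-fold (log2 2.47, SE 0.187, adjusted p = 0.00584). Nrx-1, a presynaptic neurexin, lay at 240, 161 and 282 in BL15598 and at 1025, 969 and 1033 in A2663/2, 4.55-fold higher (adjusted p = 0.0134). The voltage-gated calcium channel gene cac rose 2.51-fold (adjusted p = 0.0259; 0.31 on the log2 scale and not called when its probe sets were averaged), and the v-SNARE gene nSyb 2.02-fold (adjusted p = 0.0478), a call lost with median centring or quantile normalization. The calcium channel subunit gene stol had all 3 BL15598 arrays below the control level and rose at least 2.94-fold. Its other probe set had a log2 change of -0.61 (adjusted p = 0.636), and the average of the 2 was 1.53 and not called (adjusted p = 0.112). The neuropeptide precursor gene sNPF was called (adjusted p = 0.0165) with 45.1, 21.0 and 37.8 units in A2663/2 and at most 1.95 in BL15598, at least 1.61-fold higher.

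The 6 neuronal lists together held 8 calls among 166 members, or 4.82%, near the 3.92% of all genes. Of 26 neuronal ion channel genes 2 rose and 24 did not pass, and the list's median log2 change was 0.21 against 0.00 over all genes. Of 25 synaptic vesicle genes 2 rose (median 0.29), among 29 genes for axon guidance and synaptic adhesion 1 rose (0.14) and of 27 neuropeptide genes 1 rose (0.24), with none called lower. Of 42 neurotransmitter genes 1 fell, Gad1, and of 17 neuronal transcription and RNA-binding genes 1 fell, jim, with medians of 0.10 and -0.02. At an unadjusted p under 0.05, a level that 18.9% of all genes passed, limma gave 6 ion channel genes higher and 1 lower. In that order it gave 6 and 2 synaptic vesicle genes, 6 and 2 for axon guidance and adhesion and 5 and 1 neuropeptide genes. Of neurotransmitter genes it gave 4 and 4, and of transcription and RNA-binding genes 3 and 1. Gad1, which encodes the enzyme that makes GABA, had 109, 147 and 113 units in BL15598 and 32.45, 34.55 and 44.9 in A2663/2 (adjusted p = 0.0169), while Canton S was at 14.3 and 2/v at 87.7, so the effect of this null ran opposite to the order of the other pair. Its call was lost when all 12 arrays set the spread. The zinc finger gene jim fell 2.48-fold (adjusted p = 0.0499), a call lost with median centring and when its probe sets were averaged (log2 -0.23).

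**Figure D4:**
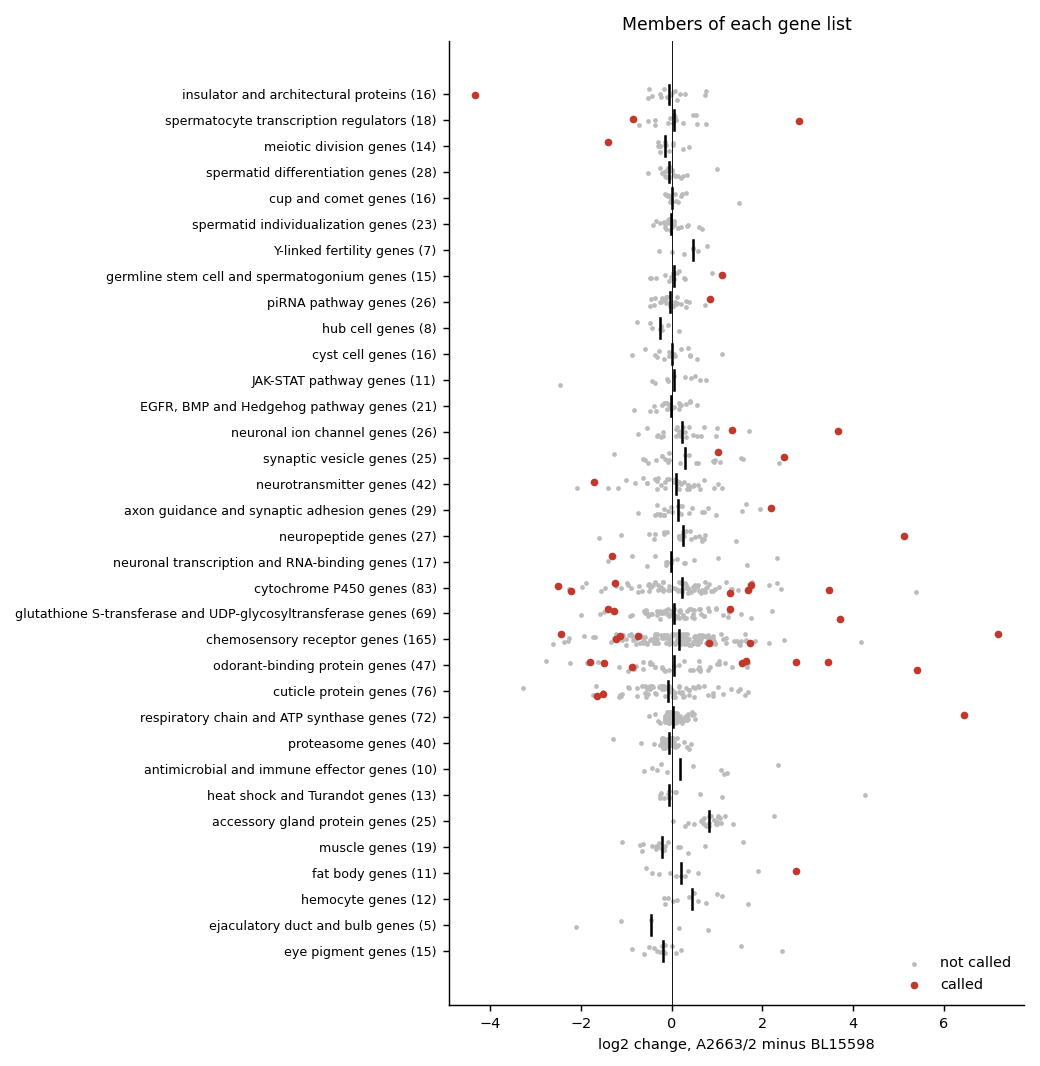
Log2 change of every measured member of the 34 gene lists (number of members in brackets), with called members in red and the list's median as a bar. Called members are single points at the edges, and the medians lie near 0 in most lists.

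Outside the rule for named genes, and picked after their values were seen, single further genes were called with both nulls high. They stand for no group. dimm, a transcription factor of neurosecretory cells, was at 88.4 ± 5.36 units (SD, n = 3) in BL15598 and 453 ± 40.3 in A2663/2 (log2 2.36). Actbeta, an activin ligand, had a log2 change of 2.57, the calcineurin subunit gene CanB one of 3.70 and Jhe, the juvenile hormone esterase gene, one of 3.53. The gene families of other called genes mostly did not pass. Of 20 measured dpr genes, which encode cell surface proteins, dpr15 was called higher (1.33) and dpr7 lower (-1.13), of 10 DIP genes DIP-beta alone was called (1.95), of 13 beat genes beat-Vb alone (2.00) and of 12 Jhbp genes Jhbp13 alone (4.10). Of 4 genes named Lip, for lipases, 3 were called higher, among them Lip2 (2.13) and Lip3 (1.61), against 2.54% of all genes. This family too was picked after its calls were seen, and the called Lip1 and Lip2 are neighbours in gene order.

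The genes with BL15598 apart were led by transcripts that the 3 other genotypes had at high and even levels. Acyp, which encodes an acylphosphatase, had 57.6, 251 and 867 units in BL15598 against 12784, 13049 and 12057 in A2663/2, a mean of 12740 in Canton S and 13900 in 2/v. The BL15598 arrays were far from each other but all below the 9 others. The call (log2 5.76, adjusted p = 0.0457) was lost with median centring and without any 1 A2663/2 array or BL15598 replicate 2, and with 1 of the 6 arrays left out the adjusted p ran from 0.028 to 0.156. CG30325 lay at 41.2, 98.9 and 174 in BL15598 and at 3384, 3152 and 3015 in A2663/2, 35.7-fold higher (adjusted p = 0.0121), with Canton S at 2992. CG42792 was at least 19.0-fold higher, CG3397 at least 26-fold and CG31897 at least 18.2-fold, each with all 3 BL15598 arrays below the control level. Canton S had 326, 747 and 277 units of these transcripts.

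Odorant-binding protein genes, whose products carry small hydrophobic molecules and are also found outside the antennae, had the densest calls of any list. Of 47 measured, 5 rose and 3 fell, or 17.0% against 3.92% of all genes, and the median of the list was 0.06. Obp57a had 19.7, 29.2 and 9.78 units in BL15598 and 923, 553 and 835 in A2663/2, at least 36.8-fold higher (adjusted p = 0.007), and its genomic relative Obp57c rose with it (log2 1.55). Obp46a rose 10.9-fold, from 56.7, 93.4 and 106 to 894, 862 and 937. In these 3 genes and in Obp56d (4627, 4602 and 4112 units in BL15598, 1527, 1514 and 1667 in A2663/2) BL15598 stood apart, as it did in Obp50d. In Obp46a both nulls also lay above both wild types, with Canton S at 510 and 2/v at 1010, and 2/v against Canton S was called (log2 0.97, adjusted p = 0.0296). In Obp99b, Obp56a and Obp58c both nulls stood against both wild types. Obp58c fell 3.51-fold, and its difference of effects passed (log2 2.64, adjusted p = 5.68e-05), since 2/v was at 146 and A2663/2 at 607.

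Genes with BL15598 alone high formed the other part of the class. CG13946 had 13226, 15473 and 24036 units in BL15598 and 653, 1263 and 1057 in A2663/2, a 17.8-fold difference (adjusted p = 0.00699), with Canton S at 585 and 2/v at 881. phyl, which encodes an adaptor for protein degradation known from the fly eye, had 4434, 4351 and 4392 against 443, 589 and 411 (9.25-fold, adjusted p = 0.00306). CG8837 fell 23.5-fold, CG42819 6.71-fold, the neprilysin-like protease gene Nepl6 4.92-fold and CG7214 6.36-fold. In all of these the 3 BL15598 arrays exceeded the 9 others.

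**Figure D5:**
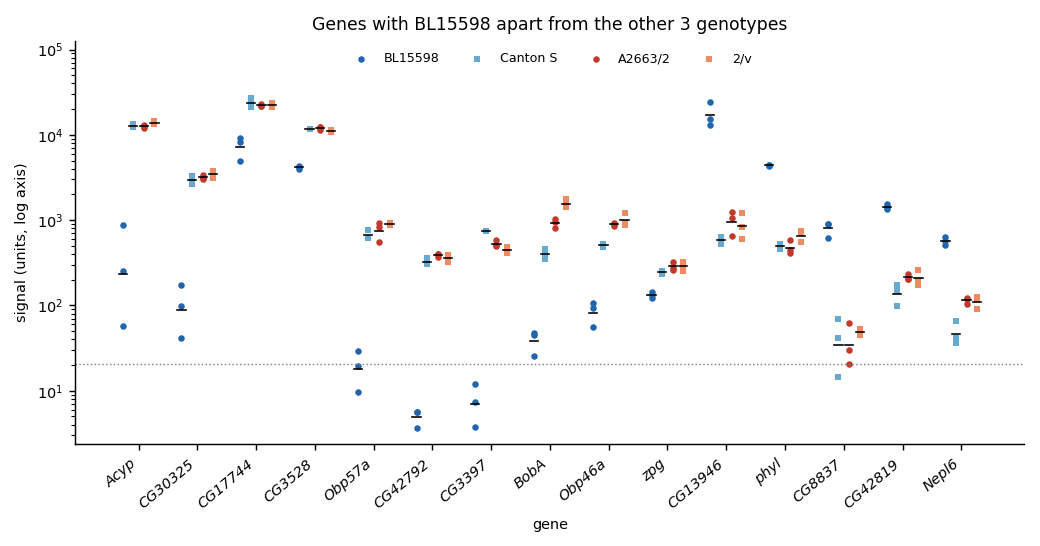
Signal on each of the 12 arrays (log axis) for 15 called genes with BL15598 apart; bars are geometric means and the dotted line is the control level of 20.4 units. The BL15598 arrays lie below the 9 others from Acyp to zpg and above them from CG13946 to Nepl6.

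The most abundant called transcripts that changed at least 1.5-fold were of both kinds. CG17744 (8283, 9096 and 4936 units in BL15598, 23308, 21914 and 21888 in A2663/2), CG3528 (2.88-fold), Roe1, a mitochondrial co-chaperone of the GrpE family (2.47-fold), and CG34049 (2.29-fold) had BL15598 low and apart. In CG34049 every null array also exceeded every wild-type array, but 2/v against Canton S was not called (log2 0.33, adjusted p = 0.189). The inactive ubiquitin-conjugating enzyme gene peo had both nulls high, at 4743, 5015 and 4247 in BL15598, 13019, 12152 and 12329 in A2663/2 and 11390 in 2/v (2.68-fold, adjusted p = 0.00765), and so did CG14069 (2.2-fold). Of those that fell, CG4480 (2.41-fold), CG5612 (2.06-fold) and vis had both nulls low, whereas CG13315 (2.28-fold) had BL15598 alone high.

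Among 18 spermatocyte transcription regulators, which switch on the testis program before meiosis, 1 rose and 1 fell, or 11.1% called against 3.92% of all genes, with a median of 0.04. In 10 of the 18 the arrays did not overlap (5 higher and 5 lower), as in 29.5% of all genes, and 9 had an unadjusted p under 0.05, a level that 18.9% of all genes passed. The called members were the near-identical homeobox genes achi, with 60.4, 98.8 and 111 units in BL15598 and 574, 590 and 676 in A2663/2 (7.02-fold, adjusted p = 0.00943), and vis, 1.8-fold lower (adjusted p = 0.0331). Whether the probes separate achi from vis was not tested. Of 28 spermatid differentiation genes, 16 cup and comet genes, which are transcribed after meiosis, and 23 individualization genes limma called 0, with list medians of -0.05, -0.01 and -0.02, and at an unadjusted p under 0.05 it gave 1, 2 and 4. Of 14 meiotic division genes 1 fell, sunn, a cohesion gene, with BL15598 alone high (2.66-fold, adjusted p = 0.0228). The 7 Y-linked fertility genes had a median of 0.46 with 6 of 7 higher, and limma called 0, with 3 at an unadjusted p under 0.05.

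The germline gap junction gene zpg was at 145, 132 and 123 units in BL15598 and at 262, 278 and 324 in A2663/2, 2.16-fold higher (adjusted p = 0.0222), with Canton S at 247. It was the 1 call among 15 germline stem cell and spermatogonium genes (median 0.04), and it was lost without any 1 of the 6 arrays, when the adjusted p ran from 0.0541 to 0.0979. Of 26 piRNA pathway genes 1 rose, cuff, 1.8-fold (adjusted p = 0.0496, lost with median centring; median of the list -0.05). Limma called 0 of 8 hub cell, 16 cyst cell, 11 JAK-STAT and 21 EGFR, BMP and Hedgehog pathway genes, with medians of -0.26, 0.00, 0.05 and -0.02. It gave 2, 2, 3 and 3 at an unadjusted p under 0.05, a level that 18.9% of all genes passed. In testis RNA as a whole, fewer cells of a type and less RNA per cell cannot be told apart.

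The insulator partners of Su(Hw) did not pass. Of 16 insulator and architectural protein genes 1 was called, su(Hw) itself, and the median was -0.06. Cp190 had a log2 change of -0.10 (adjusted p = 0.775) and mod(mdg4) one of 0.08 (adjusted p = 0.766), although 2 of the 21 other probe sets of mod(mdg4), a gene with many splice forms, were called higher (log2 1.85 and 0.83). Amt, which holds the insertion, had 208, 194 and 74.0 units in BL15598 and 164, 108.5 and 134 in A2663/2 (log2 -0.11, adjusted p = 0.93), its neighbours CG42404 and Hsc70-4 had -0.19 and 0.18, y had -0.13 and the RNA-binding protein gene Rbp9 -0.02, none of them past the test. The 15 eye pigment genes held 0 calls by limma and 3 at an unadjusted p under 0.05, a level that 18.9% of all genes passed (median -0.20).

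Detoxification genes moved in both directions. Of 83 cytochrome P450 genes 4 rose and 3 fell (8.43% called against 3.92% of all genes, median 0.22). Cyp28d1 had 77.7, 69.9 and 113 units in BL15598 and 910, 940 and 959 in A2663/2, 11-fold higher (adjusted p = 0.00348), and Cyp6d4 rose 3.2-fold, both with both nulls high. Cyp6a23 fell 4.69-fold (adjusted p = 0.0109), from a mean of 692 units in BL15598 to 150 in A2663/2. The 2/v mean was 100.3, with arrays that overlapped those of A2663/2, and the Canton S mean was 1591. Of 69 glutathione S-transferase and UDP-glycosyltransferase genes 2 rose and 2 fell (5.80% called, median 0.06). GstZ2 rose at least 6.3-fold, and GstD5 rose 2.44-fold with BL15598 apart. GstE10 fell 2.63-fold (adjusted p = 0.0335) with A2663/2 apart, at 112, 126.5 and 112 units against a mean of 313 in BL15598, 300 in 2/v and 600.1 in Canton S.

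Genes in the class with A2663/2 apart were few, 12 in all, and the difference of null effects passed in 2 of them. Among the named ones, A2663/2 against 2/v passed in the limma fit of 12 arrays only in Gr28a and CG8249 (adjusted p = 0.0114 and 0.0254). Besides GstE10 the rule names the gustatory receptor gene Gr28a, which fell 2.37-fold, and the proline oxidase gene slgA, 2.11-fold lower. CG8249, CG10550 and CG11400 rose 2.91-fold, 2.42-fold and 2.47-fold, although the calls of CG8249 and CG10550 were lost with median centring or quantile normalization. In the crossed class CG31269 had 264, 137 and 243 units in A2663/2, at most 18.85 in BL15598 and 1115 in Canton S, and was at least 10.1-fold higher than in BL15598. CG13323 rose 4.26-fold, CG4080 1.76-fold and the collagen gene Mp fell 1.8-fold. The call of Mp was lost when its probe sets were averaged (log2 -0.04).

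The other lists held 7 or fewer calls. Of 165 chemosensory receptor genes 3 rose and 4 fell (4.24% called, near the 3.92% of all genes, median 0.15). Of 76 cuticle protein genes 2 fell, Cpr100A and Cpr47Ed, with BL15598 alone high (2.63% called, median -0.08). Of 72 respiratory chain and ATP synthase genes ND-51L2 alone rose (1.39% called, median 0.03). Ir100a, of the ionotropic receptor family, lay at 82.5, 90.1 and 83.0 units in BL15598 and at 287, 276.5 and 280 in A2663/2, 3.3-fold higher (adjusted p = 0.00406). Limma called 0 of 40 proteasome, 10 antimicrobial and 13 heat shock and Turandot genes, with medians of -0.06, 0.18 and -0.07. It gave 4, 3 and 1 at an unadjusted p under 0.05, a level that 18.9% of all genes passed.

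Markers of tissues near the testis were measured beside these results. All 25 accessory gland protein genes had a higher mean in A2663/2, with a median log2 change of 0.83, but limma called 0 of them, also at an unadjusted p under 0.05. Their summed signal ran from 43739 to 93599 units over the BL15598 arrays, from 70737 to 127209 over A2663/2, from 44207 to 97186 over Canton S and from 62085 to 135353 over 2/v, so that the ranges overlapped but reached higher in both nulls. The 19 muscle genes summed to 43004 to 53175 in BL15598 and 37262 to 39448 in A2663/2 (median -0.21). Limma called 0 of them and gave 6 at an unadjusted p under 0.05, a level that 18.9% of all genes passed. Of 11 fat body genes Obp99b rose, with 87.6, 58.8 and 50.6 units in BL15598 and 549, 284 and 500.0 in A2663/2 (6.69-fold, adjusted p = 0.0202), while the list summed to 25413 to 31276 and 23261 to 25205 (median 0.20). The mean log2 signal of the fat body list, in which every member counts alike, ran from 8.08 to 8.25 in BL15598 and 7.93 to 8.23 in Canton S, and higher, from 8.34 to 8.81 in A2663/2 and 8.83 to 8.97 in 2/v. The 12 hemocyte genes (median 0.44, sums of 3590 to 4625 and 3636 to 4694) and 5 ejaculatory duct and bulb genes (median -0.46, sums of 2762 to 11050 and 2680 to 11365) held 0 calls by limma, and 3 and 0 at an unadjusted p under 0.05. No member of these lists lay below the control level on all 6 arrays. The part of these tissues in the results was not tested.

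Called genes were unevenly spread over the chromosomes. On chromosome 2, 240 of 4632 named genes (5.18%) were called, on chromosome 3, where su(Hw) and Amt lie, 167 of 5318 (3.14%), on the X 50 of 1873 (2.67%) and on the small chromosome 4, 6 of 65 (9.23%). Genes with BL15598 apart made up 2.63% of chromosome 2, 1.56% of chromosome 3 and 0.854% of the X, and those with both nulls against both wild types 2.42%, 1.41% and 1.66%. Among the 200 measured genes nearest su(Hw) in gene order, 100 on each side, 7 were called (3.5%), and among the 200 nearest Amt 7 were called (3.5%), against 3.13% of arm 3R. With 50 genes on each side the shares were 1.0% for su(Hw) and 3.0% for Amt, and with 250 they were 2.8% and 3.2%. Of the called genes with a known place, 9.72% had a measured neighbour called the same way, whereas 4.94% of all genes had a neighbour called higher and 2.72% one called lower. These shares are descriptions, since genes are not independent of each other.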

How the data were processed

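Amplified testis cDNA was hybridised to Affymetrix Drosophila Genome 2.0 arrays (12 in all). The authors deposited 1 linear intensity per probe set. The submitters' processing notes list Partek 6.5 and RMA without saying what each did. The trimmed mean (2% off each end) was 1500.03 on all 12 arrays, and the scaling step behind it is not stated. Deposited intensities were taken to log2 without an offset. Of 18952 probe sets 183 are controls, whose median of 20.4 units is the control level below which a dimmer group gives only a bound on a fold. Genes were named from the platform annotation through RefSeq (Release 6): 13647 probe sets had 1 symbol, 402 several and 4720 none, and a gene is represented by its brightest probe set. No probe set carries the symbol w alone. Array number limits the precision.

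The 6 arrays were fitted as 2 genotype means with limma 3.58.1 in R 4.3.3 (4 residual degrees of freedom before moderation), two-sided, with Benjamini-Hochberg adjustment over 18769 probe sets, and called at an adjusted p under 0.05. The difference of null effects used all 12 arrays. Folds are ratios of geometric means. The rule names su(Hw), Amt, their neighbours, y, mod(mdg4), Cp190 and Rbp9, the 15 greatest changes per direction (no overlap, 100 units or more on each array of the brighter group), the 6 most abundant per direction changed at least 1.5-fold, for each list the called members of lowest adjusted p (3 at most), and 4 genes per position class and direction, with the arrays of the genotypes apart outside all others. Alternatives were other scalings (median centring, quantile), an offset, filters on dim probe sets, array weights, a trended prior, all 12 arrays in the fit, a stricter threshold, averaged probe sets, a replicate block and leaving out each array. Members, lists and tests were chosen with earlier results of these data known. The 34 lists rest on textbook knowledge. The fit was tested on simulated data. Same-numbered replicates hardly deviated together (correlations of 0.00133 to 0.0333).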

Additional observations from a re-analysis of the deposited data

Results flagged for a closer look

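The genes below are those named above whose effect in A2663/2 against BL15598 differed from the effect in 2/v against Canton S, by the limma test of that difference over all 12 arrays (adjusted p under 0.05). Values are that difference on the log2 scale. With BL15598 low and apart, it was 6.98 in CG3397, 6.15 in CG42792, 5.64 in Acyp, 4.98 in Obp57a, 4.94 in CG30325, 4.76 in CG31897, 2.66 in BobA, 2.47 in Obp46a, 1.73 in CG17744, 1.63 in CG3528, 1.44 in Roe1, and 0.86 in both CG34049 and zpg. With BL15598 high and apart, it was -5.02 in CG8837, -4.69 in CG13946, -3.59 in phyl, -3.55 in Nepl6, -3.38 in CG42819, -1.75 in Obp56d, -1.65 in Cpr100A and -1.27 in sunn. All 3 BL15598 arrays of CG3397, CG42792 and CG31897 lay below the control level, as did 2 of Obp57a. The sizes of the differences in these genes are therefore not exact. Among the genes with BL15598 low, every null array also exceeded every wild-type array in BobA, Obp46a, CG34049 and zpg. Of these, limma called 2/v against Canton S in BobA (log2 1.94, adjusted p = 0.00467) and Obp46a.

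With both nulls below both wild types but 2/v lower, the difference was 2.81 in lncRNA:CR40465, 2.64 in Obp58c, 2.45 in CG10257 and 2.07 in CG4712. Every 2/v array of CG10257 lay below the control level. Cyp6a23, with both nulls low too, had a difference of 1.79. Its 2/v arrays overlapped those of A2663/2, while Canton S lay above BL15598, with means of 1591 and 692 units. BL15598 against Canton S was called there in the limma fit of 12 arrays (log2 -1.2, adjusted p = 0.0134). With A2663/2 apart, the difference was 2.14 in CG8249. In the crossed genes it was 9.56 in CG31269, 3.70 in CG13323, 1.04 in CG4080, -1.43 in Mp and -5.07 in Gad1. Below the control level lay all 3 BL15598 arrays and 1 2/v array (11.7 units) of CG31269. So did the Canton S arrays of Gad1 at 7.02 and 2.79 units. The sizes in these genes are therefore not exact. In Gad1 the limma fit of 2/v and Canton S alone did not pass (log2 3.34, adjusted p = 0.106).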

How the results depend on the processing

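None of the 75 called genes named by the rule changed direction under the alternatives run, although 2 were not tested over probe sets at 100 units or more, and the genes picked after seeing values were not run. Of their calls, 52 were lost without A2663/2 replicate 3, 43 and 40 without A2663/2 replicates 1 and 2, 32 without BL15598 replicate 1 or 2 and 14 without BL15598 replicate 3. The counts of probe sets called higher and lower were 819 and 462 with all 12 arrays in the fit, 771 and 425 with array weights, 869 and 537 with a trended and robust prior, 902 and 590 over probe sets at 100 units or more, and 112 and 35 at an adjusted p under 0.01. Without 1 array they ran from 71 to 339 and from 35 to 155. With the replicate number as a block limma called 0 higher and 0 lower, with 2885 at an unadjusted p under 0.05, and the change of su(Hw), A2663/2 against BL15598, was -4.33 on the log2 scale (adjusted p = 0.0863). Same-numbered arrays hardly deviated together (correlations of 0.00133 to 0.0333). With 3 arrays per group this cannot exclude that the numbers pair the samples. The block also leaves fewer degrees of freedom. The difference of null effects was called in 1197 probe sets with array weights, 1238 at 100 units or more, 1152 with the trended prior, 339 at an adjusted p under 0.01 and 500 to 759 without 1 array. Chosen after seeing the data, class shares were recomputed: both nulls against both wild types made up 42.6% at 100 units or more and 46.7% to 55.3% without 1 array, and BL15598 apart 39.5% to 50.8%. Dim probe sets limit what can be called.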
